A study of Mus musculus with 7 samples.

Results

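Retinoic acid signalling was followed through 9 genes, which were taken by symbol from a count table of 55484 genes. They are the receptors Rara, Rarb and Rarg, the membrane receptor Stra6, the cellular carriers Crabp1 and Crabp2, the synthesising enzyme Aldh1a2 and the clearing enzymes Cyp26a1 and Cyp26b1. RNA-seq was available for 4 libraries of mouse embryonic fibroblasts (MEFs) and 3 libraries of mouse embryonic stem cells (mESCs). Neither cell type carried a stated mutation or treatment. The paper gives a C57/Bl6 background for both cell types in its methods for the chromatin assay. It describes the expression data as a set that the laboratory already held. MEFs are cells cultured from the embryo's connective tissue, and mESCs are pluripotent cells cultured from the early embryo. The study sorted THY1+ MEFs and THY1-/SSEA1+/EPCAM+ mESCs for its chromatin assay. The paper's figure legends give 3 biological replicates for the expression data, whereas 4 MEF libraries are read here. Whether the RNA came from sorted cells is not given in the sources used here. Nor is it given whether libraries of a cell type came from separate cultures or embryos, so p-values measure only the spread between these libraries. The RNA extraction text in the labels describes blood stem cells rather than these cells.

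Retinoic acid is made from vitamin A by successive oxidations, and it acts through nuclear receptors that pair with RXR proteins on DNA. Cells set its level by making it and by breaking it down, and carrier proteins bring it either to the receptors or to the enzymes that degrade it. In the embryo it patterns the body axis and the limbs, and in cultured mESCs it is a widely used differentiation signal.

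The receptor pairs bind direct repeats of a short sequence, and a repeat with a spacer of 5 bases is the classical retinoic acid response element. Because 2 of the genes are textbook targets through such an element, the promoter windows of RefSeq (GRCm38.p6, 250 bases before to 50 bases after a start site) were searched on both strands. The 6-base sites searched were AGGTCA together with its variants AGTTCA, also GGGTCA as well as GGTTCA, alone or as direct repeats with spacers of 0, 1, 2 or 5 bases. Windows were found for 8 of the 9 genes, and Crabp2 had no entry. The repeats with a spacer of 5 bases are shown here, each read along its own strand, with the 6-base sites in capitals.

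Rarb: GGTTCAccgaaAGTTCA
Cyp26a1: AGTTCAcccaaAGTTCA

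The Rarb repeat lay at chr14:16575513-16575529, from -53 to -37 relative to the start site and in the direction of transcription. GENCODE M21 places it inside an annotated exon of Rarb. The Cyp26a1 repeat lay at chr19:37697776-37697792, from -32 to -16 and on the strand opposite to the gene, upstream of the annotated exons. The stretch before the annotated Cyp26a1 exons, chr19:37697558-37697797 on the plus strand, is shown with the bases of the repeat in capitals.

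Cyp26a1 upstream: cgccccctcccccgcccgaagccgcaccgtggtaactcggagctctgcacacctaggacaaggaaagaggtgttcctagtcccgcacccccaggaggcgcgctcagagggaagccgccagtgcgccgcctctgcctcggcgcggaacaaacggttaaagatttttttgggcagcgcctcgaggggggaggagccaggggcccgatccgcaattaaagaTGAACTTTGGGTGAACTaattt

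A repeat with this spacer was found in 32 of 32851 windows (0.0974%). No window of the 9 genes held a repeat with a spacer of 0, 1 or 2 bases. The single 6-base site is common, as it was found in 43.7% of all windows. Among the genes described here it was found in windows of Rara, Rarb, Rarg, Stra6 and Cyp26a1, and the repeats in Rarb and Cyp26a1 contain it. A match describes letters in a window and not a bound site.

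**Figure D1:**
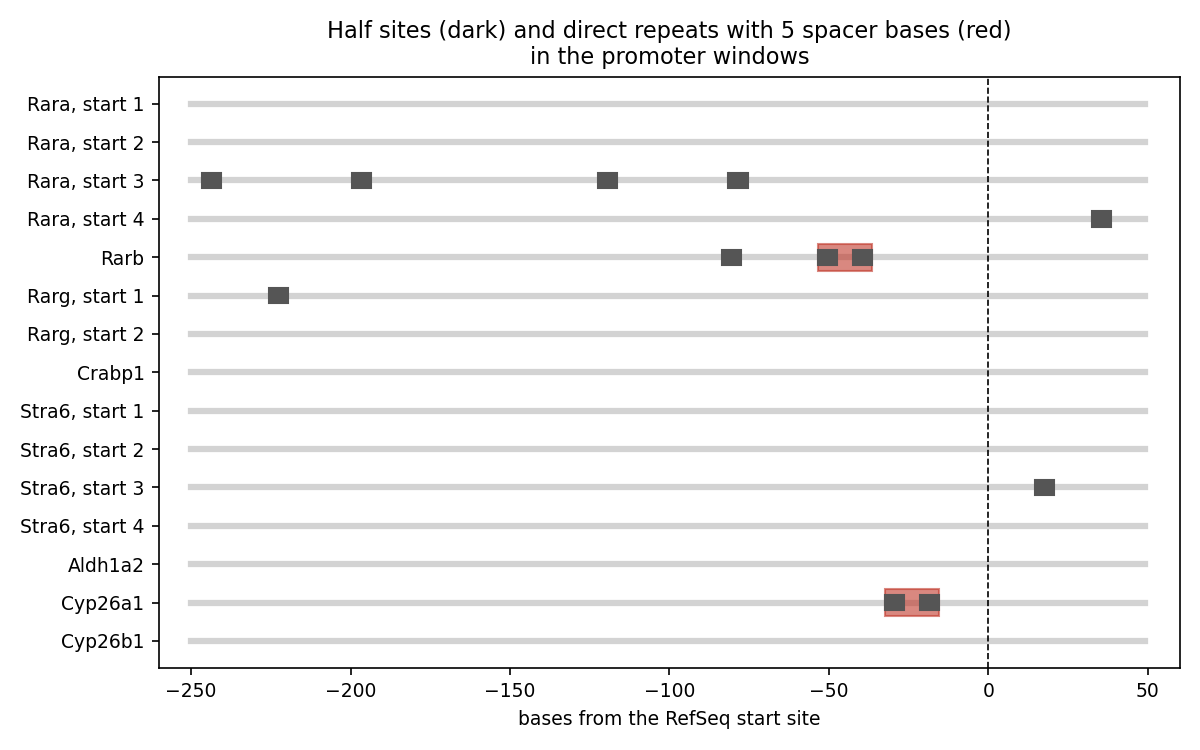
Positions of the 6-base sites (dark) and of direct repeats with a spacer of 5 bases (red) in the RefSeq promoter windows, in bases from the start site, with a row for each start site of a gene. Repeats are seen at -53 to -37 in Rarb and at -32 to -16 in Cyp26a1.

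The libraries were made from the 3' end of transcripts, so levels are compared between cell types and not between genes. MEF libraries held 11441278, 7312679, 9176467 and 6528643 counts and mESC libraries 8193825, 8057985 and 7462710, and the values below keep this order. Levels are CPM, counts scaled by library size with edgeR's TMM method, and 3 counts, the floor used here, correspond to between 0.288 and 0.477 CPM. The cell types carried their labelled markers, with 8 of 8 pluripotency genes higher and 9 of 9 fibroblast genes lower in mESCs. Of the 16580 genes tested, 47.9% differed between the cell types (quasi-likelihood test of edgeR, Benjamini-Hochberg adjusted p under 0.05), 22.8% being higher and 25.0% lower in mESCs. Over all genes tested, the median log2 fold change was 0.04 with TMM scaling and 0.32 without.

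Against this background, 5 of the 8 genes with enough counts to be tested differed between the cell types. Cyp26a1 was higher in mESCs, and Crabp1, Crabp2, Aldh1a2 and Cyp26b1 were lower. Rara, Rarg and Stra6 did not pass the threshold, and Rarb was removed by the filter on low counts. No overlap between the libraries of the cell types was seen for 6 of the 8 genes, against 52.1% of all genes tested. The median log2 fold change of the 8 genes was -1.54. In bulk RNA, fewer cells that express a gene and less RNA per cell cannot be told apart.

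**Figure D2:**
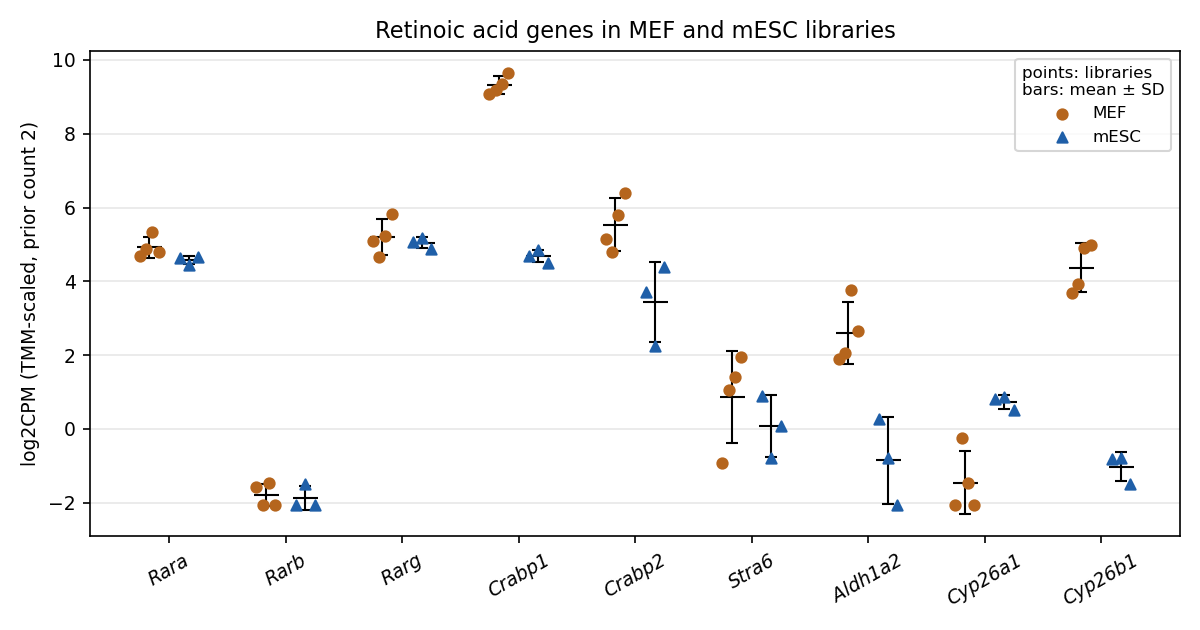
log2CPM (TMM-scaled, prior count 2) of the 9 genes in each MEF library (circles, n = 4) and each mESC library (triangles, n = 3), with the mean ± SD as bars. Crabp1 and Cyp26b1 show the widest gaps, and Rarb, Rarg and Stra6 overlap.

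Among the nuclear receptors, Rara and Rarg were read in every library without a difference past the threshold, and Rarb had at most 1 count in any library. Rara (chromosome 11, 98927818 to 98974942 of GRCm38, plus strand) encodes the broadly expressed RAR alpha. It had 267, 190, 337 and 173 counts in MEFs and 225, 191 and 214 in mESCs. Every mESC library was below every MEF library after scaling, but only narrowly, as the highest mESC value was 25.2 CPM and the lowest MEF value 25.6. Means were 30.6 ± 6.65 CPM in MEFs (SD, n = 4) and 23.8 ± 1.85 in mESCs (SD, n = 3). The log2 fold change of mESCs over MEFs was -0.36 with a 95% interval from -0.83 to 0.10 (edgeR, adjusted p = 0.183). The interval leaves room for a fall of up to 0.83 on the log2 scale.

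Rarg (chromosome 15, 102234938 to 102257517, minus strand) encodes RAR gamma. Its counts were 353, 163, 312 and 354 in MEFs and 309, 318 and 248 in mESCs. MEF libraries spread from 24.8 to 56.3 CPM and enclosed all 3 mESC libraries, which lay between 29.3 and 36.1 CPM. The log2 fold change was -0.21 (95% interval -0.78 to 0.36, edgeR, adjusted p = 0.548), and its sign turned to 0.06 without TMM scaling and to 0.03 without the MEF library of 6528643 counts. Rarg made up 54.5 ± 9.62% of the summed receptor counts in MEFs (SD, n = 4) and 58.0 ± 4.34% in mESCs (SD, n = 3), a difference within the spread between libraries (exact permutation test, two-sided, p = 0.571).

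Rarb (chromosome 14, 16430839 to 16819156, minus strand) encodes RAR beta, itself a classical retinoic acid target. It had 1, 0, 1 and 0 counts in MEFs and 0, 1 and 0 in mESCs. No library exceeded the floor of 3 counts, so no fold is given. These counts are uncertain, because 1793 exonic bases of Rarb (34.1%) are shared with Top2b, a topoisomerase gene on the opposite strand, and they begin at the very 3' end of Rarb, where these libraries are read. Top2b had 775 to 964 counts in MEFs and 251 to 295 in mESCs. The strand setting of the counting is not given in the sources used here, and the part of this overlap in the low Rarb counts was not tested.

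Uptake was read through Stra6 (chromosome 9, 58063788 to 58153996, plus strand), the membrane receptor that takes up vitamin A from its plasma carrier. It had 3, 12, 20 and 23 counts in MEFs and 15, 3 and 7 in mESCs. In each cell type 1 library was at the floor, and the groups overlapped. The log2 fold change of -1.09 had a 95% interval from -2.90 to 0.71 (edgeR, adjusted p = 0.303), so no difference was detectable in these libraries. MEF values alone spread 12.7-fold, from 0.288 to 3.66 CPM, and without the MEF library of 11441278 counts the adjusted p was 0.0932.

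Both cellular carriers were lower in mESCs. Crabp1 (chromosome 9, 54764748 to 54773110, plus strand) encodes a binding protein linked to the breakdown of retinoic acid in the cytoplasm. It had 5650, 3789, 5434 and 5049 counts in MEFs and 236, 253 and 191 in mESCs. The groups were far apart, with no MEF library under 542 CPM and no mESC library over 28.7 CPM. The level in MEFs was 25.1-fold that in mESCs, a log2 fold change of -4.65 ± 0.20 (standard error; edgeR, adjusted p = 3.92e-08).

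Crabp2 (chromosome 3, 87948666 to 87953376, plus strand) encodes the carrier that delivers retinoic acid to the nuclear receptors. It had 368, 179, 466 and 527 counts in MEFs and 119, 40 and 174 in mESCs. The groups did not overlap, but libraries within a cell type differed widely, by 3.07-fold in MEFs and 4.52-fold in mESCs. Means were 50.6 ± 25.2 CPM in MEFs (SD, n = 4) and 12.7 ± 7.99 in mESCs (SD, n = 3), a log2 fold change of -2.00 ± 0.50 (standard error; edgeR, adjusted p = 0.00727).

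The balance between the carriers was compared within each library, which removes the scaling between libraries. Crabp1 counts were 9.58 to 21.2 times Crabp2 counts in MEFs and 1.10 to 6.33 times in mESCs, without overlap. The log2 ratio, with 0.5 added to each count, was 3.78 ± 0.50 in MEFs (SD, n = 4) and 1.25 ± 1.28 in mESCs (SD, n = 3), and the exact permutation test gave p = 0.0286, the smallest that 4 against 3 libraries allow, or 0.0857 after adjustment over the 6 ratios tested.

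**Figure D3:**
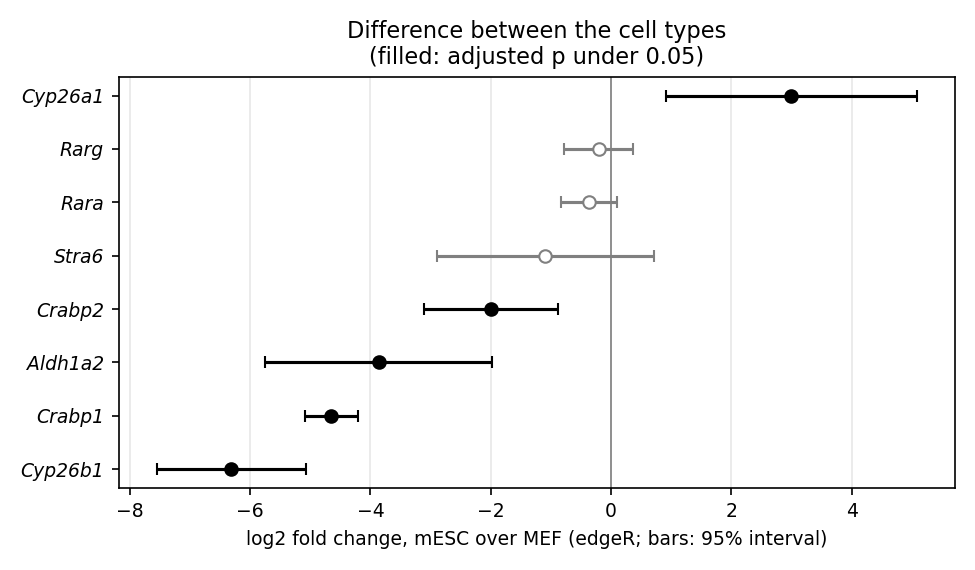
log2 fold change of mESCs over MEFs for the 8 genes tested (points) with 95% intervals (bars), filled where the edgeR adjusted p was under 0.05. Cyp26b1, Crabp1, Aldh1a2 and Crabp2 lie below 0 and Cyp26a1 above, and the sign of Rarg turns without TMM scaling.

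Aldh1a2 (chromosome 9, 71215789 to 71296243, plus strand) encodes the main enzyme of retinoic acid synthesis in the embryo. It had 36, 26, 111 and 38 counts in MEFs and 9, 3 and 0 in mESCs. All MEF libraries were above all mESC libraries, and in mESCs 2 of 3 libraries were at or under the floor. The MEF library of 9176467 counts stood highest with 13.3 CPM, against a mean of 6.69 ± 4.55 CPM (SD, n = 4). The log2 fold change was -3.86 ± 0.85 (standard error; edgeR, adjusted p = 0.00345). Pooled over libraries, MEFs had 14.7 times the mESC level, with a 95% interval from 8.26 to 29.0 that covers counting error only. Without the mESC library of 8193825 counts, which holds 9 of the 12 mESC counts, the log2 fold change was -5.16 (edgeR, adjusted p = 0.00358). Over the mESC libraries the endoderm markers Sox17, Foxa2, Sox7, Gata6 and Dab2 fell in the same order, and Gata4 (18, 7 and 19 counts) and Afp did not. Sox17 had 51, 41 and 9 counts against 0 in all MEF libraries, while Dab2 was lower in mESCs and Gata6 was not called. The part of endoderm cells in the Aldh1a2 counts was not tested.

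The clearing enzymes, cytochromes of the CYP26 family that oxidise retinoic acid, went in opposite directions. Cyp26b1 (chromosome 6, 84571414 to 84593908, minus strand) had 131, 99, 246 and 198 counts in MEFs and 3, 3 and 1 in mESCs. It was well above the floor in every MEF library and at or under it in every mESC library. The pooled level in MEFs was 80.7 times that in mESCs (95% interval 39.0 to 202, counting error only). The log2 fold change was -6.31 ± 0.56 (standard error; edgeR, adjusted p = 6.92e-06).

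Cyp26a1 (chromosome 19, 37697798 to 37701536, plus strand), whose promoter repeat is shown above and which retinoic acid induces in many cells, had 0, 4, 1 and 0 counts in MEFs and 14, 14 and 10 in mESCs. Every mESC library was above every MEF library, and 3 of 4 MEF libraries were at or under the floor. The pooled level in mESCs was 9.07 times that in MEFs (95% interval 3.56 to 29.5, counting error only). The log2 fold change of 2.99 ± 0.94 (standard error) passed the threshold (edgeR, adjusted p = 0.0226), and rested on few counts. The call was lost when any mESC library was left out, with adjusted p-values of 0.0718 without the library of 8193825 counts, 0.0704 without that of 8057985 and 0.0519 without that of 7462710. Without the MEF library of 7312679 counts, which holds 4 of the 5 MEF counts, the log2 fold change was 4.72.

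Within libraries, the log2 ratio of Cyp26a1 to Cyp26b1 counts was negative in 4 of 4 MEF libraries and positive in 3 of 3 mESC libraries. Its mean, with 0.5 added to each count, was -7.12 ± 1.85 in MEFs (SD, n = 4) and 2.30 ± 0.44 in mESCs (SD, n = 3), with the smallest possible p in the exact permutation test (0.0286; 0.0857 after adjustment over the 6 ratios). Cyp26a1 was at or under the floor in 3 of 4 MEF libraries and Cyp26b1 in every mESC library. The size of this ratio therefore rests on few counts and on the added 0.5. The summed Cyp26 counts over those of Aldh1a2 overlapped between the cell types, with log2 ratios of 1.83 ± 0.51 and 2.58 ± 1.83 (SD; exact permutation test, p = 0.543). In mESCs this ratio rests on Aldh1a2 counts of 9, 3 and 0. The library with 0 has the highest log2 ratio, 4.52, which depends on the added 0.5.

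**Figure D4:**
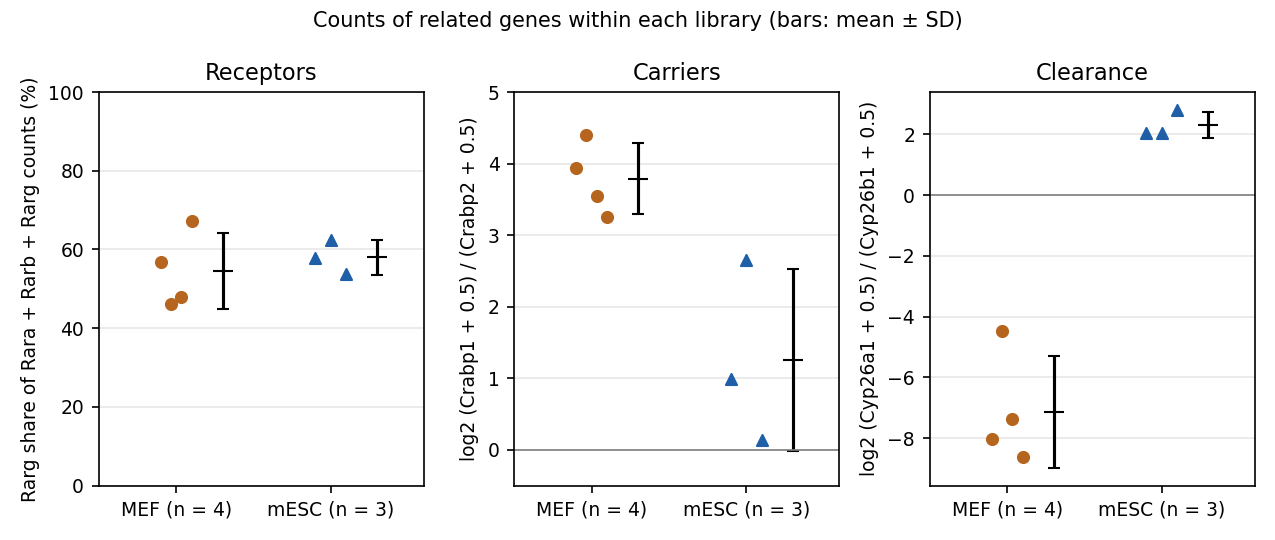
Within-library values for MEFs (circles, n = 4) and mESCs (triangles, n = 3) with mean ± SD: Rarg share of receptor counts in percent, log2 ratio of Crabp1 to Crabp2 and log2 ratio of Cyp26a1 to Cyp26b1, with 0.5 added to each count. The Rarg shares overlap, and both log2 ratios separate the cell types.

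Tested gene by gene on log2CPM, Crabp1, Crabp2, Aldh1a2 and Cyp26b1 reached the smallest p that the exact permutation test allows (0.0286, two-sided and not adjusted), and none would pass a threshold of 0.05 once adjusted for the 9 tests. Rara and Cyp26a1 had p = 0.0571 in the same exact permutation test, and Rarg and Stra6 had p-values of 0.657 and 0.343, with Rarb overlapping as well.

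The genes whose profile over the 7 libraries was nearest to each of the 8 tested genes were found by the root mean square difference of centred log2CPM. The measure spans both cell types, so for a gene that differs between them it largely reflects the size of that difference. Nearest to Crabp1 were Prrx2, a homeobox gene of mesenchyme, at 0.110 and Fam114a1 at 0.129. Their log2 fold changes were -4.62 and -4.68, against -4.65 for Crabp1. Nearest to Cyp26b1 were Adamts2, a procollagen-processing enzyme, at 0.167 and Pgm5 at 0.175. Neighbours were less close for Aldh1a2 (Trim66 at 0.373, Lims2 at 0.438), Stra6 (Rac3 at 0.350, Arhgef19 at 0.396), Crabp2 (Col5a3 at 0.204, Fbxo10 at 0.261) and Cyp26a1 (Gm4675 at 0.230, Prodh2 at 0.253). The genes nearest to Rara were C2cd2 (0.0665) and Gm43532 (0.0871), and those nearest to Rarg were Pknox1 (0.0703) and Phc3 (0.102).

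A list of 60 further genes of the pathway was read in the same fit. Of 42 tested, 8 were higher and 23 lower in mESCs, and 11 did not pass the threshold. Their median log2 fold change was -0.96. These 31 calls stand beside 47.9% called among all genes, and the list itself was not tested.

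Among the RXR partners, Rxra was lower in mESCs, with 129, 116, 79 and 108 counts in MEFs and 65, 84 and 42 in mESCs. The groups overlapped, and the log2 fold change of -0.97 (edgeR, adjusted p = 0.0335) missed the threshold without TMM scaling (adjusted p = 0.104). It also missed it when a single library was left out, for the MEF libraries of 7312679 and 6528643 counts (adjusted p = 0.0775 and 0.0759) and the mESC libraries of 8193825 and 7462710 counts (0.0836 and 0.114). Rxrb differed by 0.41 on the log2 scale (edgeR, adjusted p = 0.219), and Rxrg, with 0 to 16 counts per library, was not tested. Of 8 coregulators, the acetyltransferase Ep300, the coactivator Ncoa3 and the corepressor Ncor1 were higher in mESCs, by 1.25, 1.86 and 0.52 on the log2 scale. The Ncor1 call was lost without the MEF library of 11441278 (adjusted p = 0.0525) or 7312679 counts (0.0537) or the mESC library of 8193825 counts (0.0693). The acetyltransferase Crebbp was lower, with a log2 fold change of -0.95. The 3' end of Ncoa3 overlaps Sulf2 on the opposite strand by 154 exonic bases.

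In uptake and carriage, 4 of 9 listed genes were tested. Lpl, a lipase that can release retinol from lipoproteins, was lower in mESCs (log2 fold change -3.31; edgeR, adjusted p = 1.79e-05). Rbp7, a cellular retinol-binding protein, was higher (2.80; edgeR, adjusted p = 0.00844), with 0 to 5 counts in MEFs and 15 to 27 in mESCs.

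Of 16 genes of retinol and retinal interconversion, 11 were tested, with 7 lower and 2 higher in mESCs. Among all genes tested 25.0% were lower and 22.8% higher. Rdh10, which makes most retinal in the embryo, had 92, 54, 126 and 56 counts in MEFs and 49, 15 and 37 in mESCs. Its log2 fold change of -1.43 (edgeR, adjusted p = 0.0184) missed the threshold without the MEF library of 9176467 counts (adjusted p = 0.0549) or the mESC library of 8057985 (0.0508). Dhrs3, which turns retinal back into retinol, was lower by a log2 fold change of -1.58, and the alcohol dehydrogenases Adh1 and Adh7 by -5.44 and -4.27. Without the mESC library of 8193825 counts, which holds 10 of the 13 mESC counts of Adh1, its log2 fold change was -6.85. Dhrs4 and Adh5 were higher by 0.51 and 0.63. The Dhrs4 call was lost with a looser filter (adjusted p = 0.108), without the MEF library of 11441278 (0.0687) or 9176467 counts (0.0665), and without the mESC library of 8193825 (0.088) or 8057985 counts (0.0899). Rdh13 stood out in the MEF library of 11441278 counts, with 5789 counts against 342 to 807 in the other MEF libraries. Its log2 fold change was -1.98 with it (edgeR, adjusted p = 0.0482) and -0.64 without it (adjusted p = 0.128). The call was also lost in DESeq2 (adjusted p = 0.0787), without TMM scaling (0.0697) and without the mESC library of 8193825 (0.123), 8057985 (0.0938) or 7462710 counts (0.121).

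Of 4 other retinal-oxidising enzymes listed, 2 had enough counts to be tested, and both were lower in mESCs, as was Aldh1a2. Among all genes tested 25.0% were lower. Aldh1a3 had 137, 78, 130 and 118 counts in MEFs and 8, 7 and 6 in mESCs, a log2 fold change of -4.20 (edgeR, adjusted p = 5.14e-06). Aldh1a1 had 10 to 32 counts in MEFs and 0 or 1 in mESCs. Cyp26c1, the remaining enzyme of its family, had 0 to 3 counts in every library and was not tested. Fabp5, which carries retinoic acid to another nuclear receptor, was lower, with a log2 fold change of -2.40.

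Of 16 classical target genes, 12 were tested, with 2 higher and 8 lower in mESCs, beside 22.8% and 25.0% of all genes tested. Stra8, a gene of germ cells entering meiosis, rose from 0 to 2 counts per MEF library to 151, 334 and 191 counts in mESCs (edgeR, adjusted p = 1.92e-06). Cdx1, a homeobox gene of the caudal embryo, was higher by 2.29 on the log2 scale, with 1 to 7 counts in MEFs and 14 to 30 in mESCs, a call lost without the mESC library of 8193825 (adjusted p = 0.0592) or 8057985 counts (0.0541). Hoxa2, with 37 to 56 counts in MEFs and 0 or 1 in mESCs, was lower in mESCs (edgeR, adjusted p = 3.05e-05), and shares 15.0% of its exonic bases with the overlapping gene Gm28308.

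**Figure D5:**
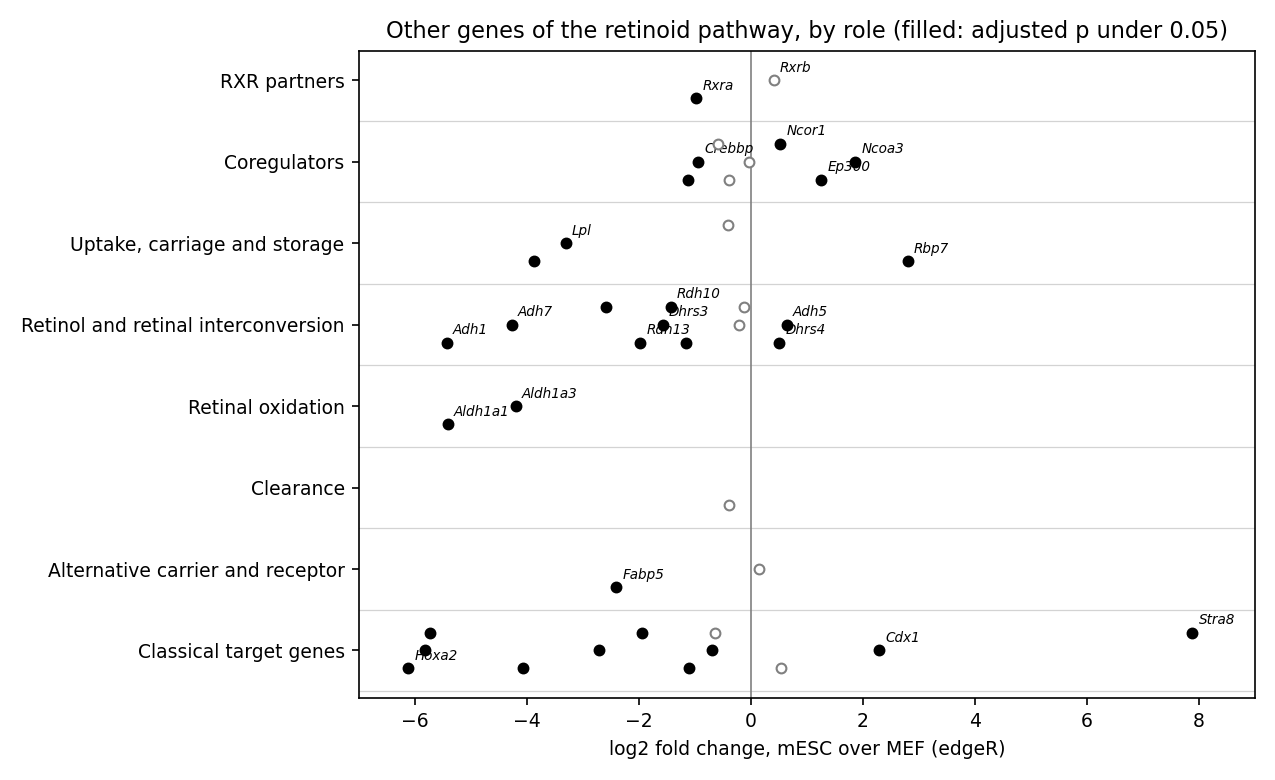
log2 fold change of mESCs over MEFs for the 42 tested genes of the pathway list, in rows by role, filled where the edgeR adjusted p was under 0.05. Most filled points lie below 0, and Stra8 lies farthest above it.

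Markers of other cell types were read beside these results as counts per library and as summed CPM over each list. The 7 endoderm markers did not move together. Sox17 and Foxa2 were at 0 in all MEF libraries and had 51, 41 and 9 counts and 21, 18 and 4 counts in mESCs. For Gata4 and Sox7, too, all mESC libraries lay above all MEF libraries, and these 4 genes were removed by the filter. Dab2 was lower in mESCs (edgeR, adjusted p = 0.009), Gata6 was not called, and Afp had 0 to 15 counts. Dab2 and Gata6 carry most of the summed level, which was 83.8 to 143 CPM in MEFs and 23.5 to 85.4 in mESCs. Of the 5 neural markers, Neurod1 was higher in mESCs (0 or 1 count in MEFs and 134 to 285 in mESCs), as was Sox1 (log2 fold change 3.33), and Tubb3 was lower (-1.71). Their summed level, mostly Tubb3 in MEFs, was 76.8 to 119 CPM there and 66.5 to 77.2 in mESCs.

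Of 4 endothelial markers Pecam1 alone was called, higher in mESCs, and the summed level was 9.40 to 13.1 CPM in MEFs and 25.3 to 44.3 in mESCs. Of 4 mesothelial markers Lrrn4 was higher and Wt1 lower in mESCs, with a summed level of 7.10 to 13.6 CPM in MEFs and 13.9 to 22.1 in mESCs. Of 4 blood markers 2 were called, both lower in mESCs (4.12 to 12.2 CPM summed in MEFs, 0.236 to 0.650 in mESCs). None of the 4 skin epithelial markers (118 to 147 and 114 to 141) was called. Of the 3 muscle markers (12.6 to 21.8 and 10.9 to 18.0) only Des was tested, and it was not called. The filter removed the neural Neurog2, the endothelial Cdh5, the mesothelial Upk3b, the blood markers Ptprc and Hbb-bt, and the muscle markers Myod1 and Myog. These were not tested, and among all genes tested 47.9% were called. The sort markers differed in opposite directions, Thy1 being lower and Epcam higher in mESCs. The part of these cells in the levels described here was not tested.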

How the data were processed

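The RNA-seq data were counts per gene in 4 MEF and 3 mESC libraries. The authors made 3'-biased libraries with molecular identifiers, aligned reads to mm10 with STAR (2.4.2a per the labels), removed duplicates by identifier in Je and assigned unique alignments to exons in featureCounts, and the deposited counts are whole and not normalized. Neither the annotation release nor the strand setting is given in the sources used here. Library totals ran from 6528643 to 11441278 counts. Column names give the cell type but are not stated to carry sample numbers, so libraries are named by their totals. All columns of a cell type share a stem, MEF1_O or mESC1_Y. What its number and letter stand for is not stated, so a common source of the libraries of a cell type was not tested. No pair of libraries agreed within sampling noise (chi-square per degree of freedom 15.6 to 31.1).

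Counts that passed filterByExpr were fitted in R 4.3.3 by edgeR 4.0.16 and limma 3.58.1 after TMM scaling. Genes were called by the quasi-likelihood test at a threshold of 0.05 after Benjamini-Hochberg adjustment over every gene tested. The log2CPM values used a prior count of 2. Single genes and 6 within-library ratios were compared by two-sided exact permutation tests. Pooled ratios carry exact 95% intervals for counting error. The code was tested on simulated data. Coordinates are from GENCODE M21 (GRCm38).

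The 9 genes, the pathway list and the marker lists (pluripotent, fibroblast, sort, endoderm, skin epithelial, endothelial, blood, neural, muscle and mesothelial) were chosen with earlier results of these data known. Of the pathway list, 9 genes were set to be always named, with the 2 largest non-overlapping calls of each role, and of all genes the 2 nearest profiles per gene. Some genes that this rule or the calls would name are not reported here. Ncor1, Crebbp, Rbp7, Dhrs4, Adh5, Cdx1, Rdh13, Rdh16 and Top2b, single markers and the genes named only in the closing section, were named after their values were seen. Alternatives were DESeq2 1.42.0, its size factors, no TMM scaling, a looser and a stricter filter, a test against a fold of 2, other prior counts and leaving out each library.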

Additional observations from a re-analysis of the deposited data

Results flagged for a closer look

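In 68 genes (the 9 genes and the pathway list, without Adh4, which is at 0 in all MEF libraries), the highest and the lowest of the 4 MEF libraries were set against the other 3 by Dixon's test, and 7 genes had a library standing apart, where chance flags about 1 in 20 groups. Rdh13 had 555 CPM in the MEF library of 11441278 counts, against 54.0 to 123 in the others. Rdh10 had 15.1 CPM in the MEF library of 9176467 counts, against 8.23 to 8.91. Nr2f2 was lowest in the MEF library of 6528643 counts with 157 CPM, against 197 to 201. For 4 genes a single library held 1 to 4 counts and the others none, namely Stra6l (0.288 CPM) and Rdh1 (0.0959 CPM) in the library of 11441278 counts, Ttr (0.120 CPM) in that of 9176467 and Rarres2 (0.636 CPM) in that of 6528643. With the other libraries at 0, such a gene is flagged whatever its count, so these 4 flags cannot be set against the 1 in 20.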

How the results depend on the processing

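No paired analysis was possible because the count columns carry no number stated to be that of a sample. Under each alternative 5 of the 9 genes were called, except that 4 were called against a fold change of 2 and when any mESC library was left out, Cyp26a1 being the gene lost. Testing against a fold change of 2 left 3991 of all genes and 18 of the pathway genes, which follows from the stricter hypothesis. Without TMM scaling 5180 genes were higher and 3345 lower in mESCs, against 3785 and 4153 with it. Rarg turned to a log2 fold change of 0.0611 and a log2CPM difference of 0.13 without TMM scaling, and ranged from -0.37 to 0.0287 with 1 library left out. Its and Rara's near neighbours turned as well, Gm43532 to 0.0015, Pknox1 to 0.0165 and Phc3 to 0.0364. Of 622 recomputed fold changes, 570 kept direction and side of the threshold, 47 lost the call and 5 reversed. The ratios were labelled unchanged in 45 of 45. The log2CPM differences were in 79 of 81, with 1 reversed and 1 no longer under 0.05 in the exact permutation test. With 1 library left out, the permutation test cannot pass 0.05. Ratios and log2CPM differences were then judged by their shift against the spread between libraries. Leaving out 1 library always shifts a mean by less than this spread, so the rule could not mark such a result as moved. Most labels of the ratios and log2CPM differences are of this kind, and these labels say nothing about stability. Low counts limit Rarb and Stra6 in both cell types, Cyp26a1 in both, and Aldh1a2 and Cyp26b1 in mESCs.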

Other observations

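Rdh16, a retinol dehydrogenase of the pathway list that the filter removed, had 315 counts in the mESC library of 8193825 counts, against 9 and 12 in the other mESC libraries and 4 to 8 in the MEF libraries.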
